A study of Homo sapiens with 15 samples.

Results

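Transforming growth factor beta (TGF-beta) and the related bone morphogenetic proteins (BMPs) are secreted ligands that bind paired type I and type II receptor kinases, which phosphorylate SMAD transcription factors. The inhibitory SMADs and the co-repressor SKIL restrain the response and are themselves induced by it, and the ID genes are among its best known targets. ID proteins (inhibitors of DNA binding) carry a helix-loop-helix but no DNA-binding region. They pair with E proteins, the common partners of tissue-specific basic helix-loop-helix (bHLH) factors, and keep them off E-box DNA, which in blood cells delays differentiation. TGF-beta itself restrains the growth of early blood cells.

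Here 10 genes of this system were followed in K562 cells, a human chronic myeloid leukaemia line with erythroid character. They are ID1, ID2, ID3 and ID4, the inhibitory SMADs SMAD6 and SMAD7, SKIL, the ligand TGFB1 and the receptors TGFBR1 and TGFBR2, chosen by symbol among 60649 genes counted. The cells were untreated or had been exposed for 24 h to 0.15, 0.25, 0.5 or 1 µM martinostat, an inhibitor of histone deacetylases (HDACs), with 3 libraries of poly(A) RNA per group. The labels name no genetic change in any group and number the libraries as biological replicates 1 to 3. A figure legend of the study calls these sequencing data independent experiments, and p-values measure the spread between these libraries. Each dose was compared with untreated cells, for which the labels name no solvent, and doses were compared with each other. A level is given as CPM (counts per 1e+06 counted fragments, with library sizes adjusted by TMM, edgeR's trimmed-mean factors), as mean ± SD of 3 libraries. Differences are log2 fold changes from 1 edgeR quasi-likelihood fit over 23711 genes. A gene is called where its p, adjusted by Benjamini-Hochberg, was under 0.05. The standard error beside a change is approximate, computed as the absolute log2 fold change over the square root of its F statistic. Low counts removed ID4, so 9 of the 10 genes were tested.

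Library totals ran from 23755510 to 32805574 counts. Martinostat altered a large part of the transcriptome, which sets the background for every count below. Against untreated cells, 51.2%, 62.3%, 66.9% and 66.2% of all tested genes were called from the lowest to the highest dose. Over all tested genes the log2 fold change had a median of 0.28, 0.32, 0.34 and 0.32 in that order, and of 0.64, 0.85, 0.72 and 0.67 when libraries were scaled by their totals alone. At 1 µM 9193 genes were called higher and 6514 lower, against 10808 and 4777 with library totals. At 0.15 µM the numbers were 7557 and 4591, against 9582 and 2118. Changes of the size of these medians depend on the scaling. On the third principal component the libraries numbered 3 at 0.25 and 0.5 µM stood apart (70.1 and 75.4, with all others at 16 or below), and results that rest on them are given with and without them. As a check of the cell line, HBZ, the embryonic zeta-globin, was at 1052 ± 57.7 CPM and GATA1, an erythroid transcription factor, at 328 ± 5.92 CPM in untreated cells. HBE1, the embryonic epsilon-globin on the same list of 8 markers, was barely detected there, with 13 counts over the 3 libraries (0.17 ± 0.095 CPM). Exons of other genes on the same strand cover 90.0% of its exon bases. Whether reads shared by genes were counted is not given in the sources used here, so this count may understate its RNA.

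The promoters of ID1 and ID3 are shown because both genes rose about as steeply at the lowest dose, while the letters before their starts differ. They are RefSeq promoter sequences (GRCh38.p14) on the strand of each gene, 5′ to 3′, up to the annotated gene start. ID1 lies at chr20:31605283-31606515 on the plus strand and its sequence covers chr20:31605039-31605282, while ID3 lies at chr1:23557926-23559501 on the minus strand and its sequence covers chr1:23559502-23559751. Capitals mark CCAAT boxes, TATA boxes (TATAAA) and the core of the SMAD-binding element (CAGAC), searched on both strands.
ID1: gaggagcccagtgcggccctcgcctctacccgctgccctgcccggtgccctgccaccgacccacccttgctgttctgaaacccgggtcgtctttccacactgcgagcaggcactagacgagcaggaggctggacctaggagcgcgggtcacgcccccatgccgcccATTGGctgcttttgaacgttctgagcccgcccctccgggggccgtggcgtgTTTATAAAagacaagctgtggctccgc
ID3: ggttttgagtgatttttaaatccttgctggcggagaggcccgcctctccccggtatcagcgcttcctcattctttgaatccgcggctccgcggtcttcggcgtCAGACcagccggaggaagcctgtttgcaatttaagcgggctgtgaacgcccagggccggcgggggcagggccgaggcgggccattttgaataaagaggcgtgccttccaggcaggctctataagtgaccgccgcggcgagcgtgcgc

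In the 250 bases before the RefSeq start, ID1 held 1 CCAAT box that began 84 bases before the start, read on the opposite strand, and a TATA box 31 bases before it. That TATA box forms a palindromic run that also matches on the opposite strand. ID3 held neither of the exact strings CCAAT and TATAAA and had 1 CAGAC match 147 bases before the start. Its printed sequence holds tataag near the start, a variant that was not searched. The same window of ID2 (gene at chr2:8678845-8684461, plus strand), which is not printed since it lies within the annotated gene, held 3 CCAAT boxes and no TATA box or CAGAC. Of 35116 RefSeq promoters, 32% held CCAAT, 10.7% TATAAA and 38% CAGAC in this window. GGCGCC, a GC-rich SMAD element, was in none of the 3 windows and in 16.4% of all promoters. An E-box (CANNTG) was in the window of ID2 only, and in 61.8% of all promoters. The GC box (GGGCGG) had 2 matches each in ID1 and ID2 and none in ID3, and was in 42.6% of all promoters. A match describes letters in this window and is not evidence of binding.

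The ID genes gave the steepest changes among the 10 genes. ID1, ID2 and ID3 were low in untreated cells and all 3 rose at every dose, by 8.05-fold to 11.1-fold at 0.15 µM. With the inhibitory SMADs, 5 of the 9 tested genes were called higher at 0.15 µM, where 31.9% of all tested genes were called higher and 19.4% lower. At 1 µM these 3 ID genes and SMAD6 were called higher and TGFBR2 lower, beside 38.8% of all tested genes called higher. By log2 fold change at 1 µM, ID2 ranked 2181st, ID3 2983rd and ID1 4021st of all 23711 tested genes. Of 10128 genes that averaged 10 CPM or more, ID2 ranked 232nd, ID3 345th and ID1 480th. The inhibitory SMADs that were called higher stood nearer the middle of all 23711 tested genes. SMAD6 ranked 10191st at 1 µM, and at 0.15 µM SMAD6 ranked 9635th and SMAD7 9988th.

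**Figure D1:**
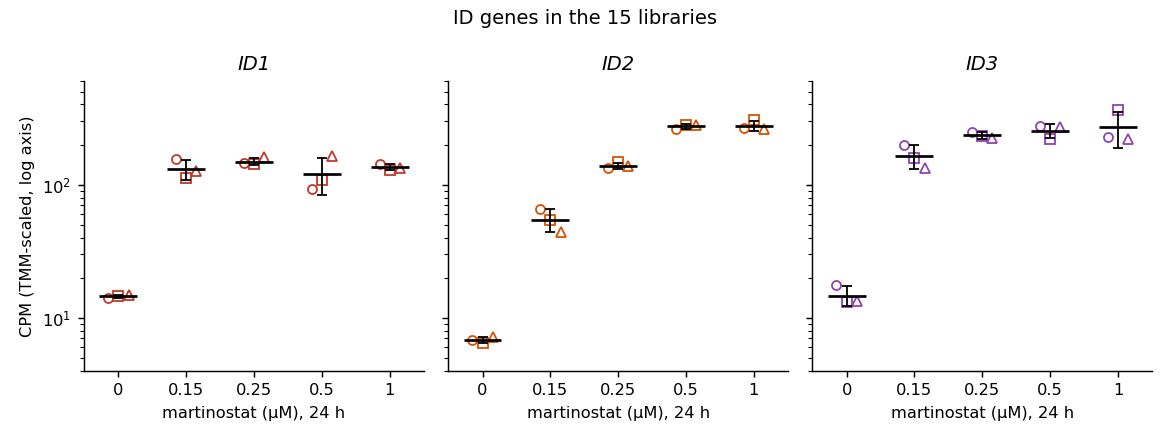
TMM-scaled CPM of ID1, ID2 and ID3 on a log axis against the martinostat dose in µM, with 1 symbol per library (circle, square and triangle for replicates 1, 2 and 3) and bars for the mean ± SD of 3 libraries. ID1 sits near its final level from 0.15 µM on (131, 149, 121 and 136 CPM), while ID2 climbs from 6.80 to 276 CPM over the doses.

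ID1 was at 14.1, 14.5 and 14.8 CPM in the untreated libraries. At 0.15 µM it was at 155, 112 and 126 CPM, and at 1 µM at 144, 129 and 134 CPM. The treated libraries at 0.15 µM and those at 1 µM overlapped, and both lay wholly above the untreated ones. Against untreated cells the log2 fold change was 3.18 ± 0.19 at the lowest dose (adjusted p = 1.57e-10), then 3.36 and 3.07, and 3.23 ± 0.19 at the highest (adjusted p = 4.09e-11). None of the steps between doses was called for ID1 in this fit, and the difference between 1 and 0.15 µM was 0.05 ± 0.17. The spread was widest at 0.5 µM, with libraries at 92.7, 108 and 163 CPM, the highest of which was the third. Without the third libraries at 0.25 and 0.5 µM, the step from 0.25 to 0.5 µM was -0.50 with an adjusted p of 0.00901, against -0.30 and 0.216 with all libraries. That step was also called without the third library at 0.5 µM alone (-0.57, adjusted p = 0.00507) and, in a fit of these 2 groups with replicate number as a block, at -0.35 (adjusted p = 0.0246), but not in the fit of these groups without the block.

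ID2 rose in steps. It was at 6.79, 6.45 and 7.16 CPM in untreated cells, at 65.6, 54.3 and 44.4 CPM at 0.15 µM, and at 134, 148 and 137 CPM at 0.25 µM. The libraries at 0.5 µM held 261, 282 and 279 CPM and those at 1 µM 266, 304 and 260 CPM. No library of one of the first 4 groups overlapped with another of these groups, while the 0.5 and 1 µM libraries overlapped. The log2 fold change against untreated cells went from 3.01 ± 0.16 at the lowest dose through 4.36 ± 0.16 and 5.33 ± 0.17 to 5.34 ± 0.17 at the highest, which is 40.6-fold (adjusted p = 2.25e-14). From 0.15 to 0.25 µM it gained 1.35 ± 0.14 (adjusted p = 2.17e-05), the 1 of 9 tested genes called at this step, which called 12.3% of all tested genes. From 0.25 to 0.5 µM it gained another 0.98 ± 0.14 (adjusted p = 3.41e-05). Between 0.5 and 1 µM the difference was 0.01 ± 0.14. About 6.6% of the exon bases of ID2 lie under exons of the antisense gene ID2-AS1.

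ID3 lay between these patterns. Untreated libraries held 17.6, 13.2 and 13.3 CPM, those at 0.15 µM 199, 159 and 133 CPM, and those at 0.25 µM 249, 233 and 223 CPM. At 0.5 µM the values were 274, 220 and 272 CPM and at 1 µM 226, 364 and 219 CPM, so the 3 upper doses overlapped and the second library at 1 µM was the highest of all. The log2 fold change was 3.48 ± 0.22 at 0.15 µM (adjusted p = 2.67e-10) and 4.2 ± 0.22 at 1 µM (adjusted p = 1.03e-11). The gain from 0.15 to 1 µM, 0.72 ± 0.20, was called (adjusted p = 0.00564) and became 0.44 without the second library at 1 µM, when it was not called. The step from 0.15 to 0.25 µM was 0.52 ± 0.20 (adjusted p = 0.0887) and was called in 5 of 26 alternative fits, among them DESeq2 (0.62, adjusted p = 0.0275) and the fit without the second library at 1 µM (0.52, adjusted p = 0.0488).

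ID4 (chr6:19837370-19842197, plus strand) was barely detected. The 3 untreated libraries held 6 counts together, the groups at 0.15, 0.25 and 0.5 µM held 2, 2 and 4, and the 1 µM group held 23. Counts this low were removed before testing, and no fold is given. With no filter on low counts its log2 fold change at 1 µM was 1.68 with an adjusted p of 0.37.

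**Figure D2:**
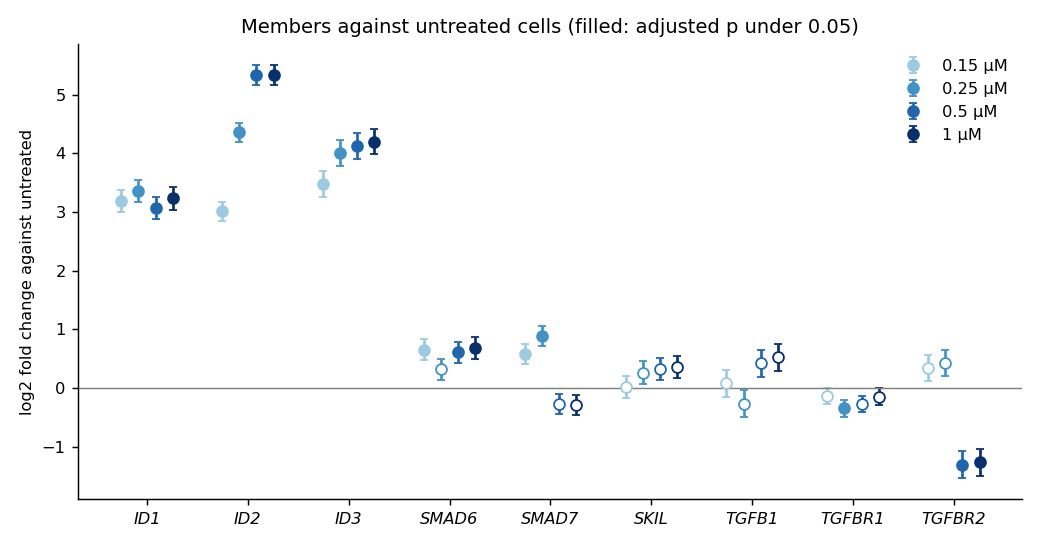
Log2 fold change against untreated cells (points) ± standard error (bars) of the 9 tested genes at the 4 doses, from light (0.15 µM) to dark (1 µM), filled where the adjusted p was under 0.05. The ID genes lie between 3.01 and 5.34 at every dose, whereas the other 6 genes lie between -1.31 and 0.88.

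The inhibitory SMADs took different courses over the doses. SMAD6, which blocks mainly BMP signals, was called higher at 0.15, 0.5 and 1 µM, and SMAD7, which blocks TGF-beta receptors, rose at the 2 lower doses and was back near its untreated level at the 2 higher ones. SMAD6 (chr15:66702236-66782849, plus strand) was at 19.2, 24.1 and 24.4 CPM in untreated cells, at 38.6, 34.7 and 33.1 CPM at 0.15 µM and at 38.3, 34.1 and 36.0 CPM at 1 µM. Its log2 fold change was 0.65 ± 0.18 at the lowest dose (adjusted p = 0.00565), 0.32 ± 0.18 at 0.25 µM (adjusted p = 0.128), 0.61 at 0.5 µM (adjusted p = 0.00612) and 0.68 ± 0.18 at the highest dose (adjusted p = 0.0029). All libraries at 0.15 and 1 µM lay above the untreated ones, while those at 0.25 µM overlapped with them. The change at 0.25 µM depended on the scaling. It was 0.87 and called under library totals (adjusted p = 0.00046). With TMM computed on genes above 10 CPM it was 0.75 and called (adjusted p = 0.001). The third library of SMAD6 at 0.5 µM, at 24.7 CPM, lay apart from the others at 39.2 and 39.7 CPM. Without it and the third library at 0.25 µM, SMAD6 was lower at 0.25 than at 0.15 µM (-0.46, adjusted p = 0.0311) and higher at 0.5 than at 0.25 µM (0.65, adjusted p = 0.00227). The second of these calls was also made without the third library at 0.5 µM alone (0.48, adjusted p = 0.0261).

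SMAD7 (chr18:48919853-48950965, minus strand) was at 28.7, 30.9 and 30.1 CPM in untreated cells, at 52.2, 44.8 and 37.2 CPM at 0.15 µM and at 44.6, 61.0 and 59.6 CPM at 0.25 µM. At 0.5 µM it was at 21.2, 22.1 and 30.6 CPM, and at 1 µM at 24.7, 24.1 and 24.4 CPM. The libraries of the 2 lower doses lay above all untreated libraries and above all those of the 2 higher doses. Those at 1 µM lay below all untreated libraries, and those at 0.5 µM overlapped with them. The log2 fold change was 0.58 ± 0.17 at 0.15 µM (adjusted p = 0.00693) and 0.88 ± 0.17 at 0.25 µM (adjusted p = 0.000158). At 0.5 and 1 µM it was -0.28 (adjusted p = 0.153) and -0.29 (adjusted p = 0.129), with values of 0.13 and 0.06 under library totals. Between 0.25 and 0.5 µM SMAD7 fell by 1.16 ± 0.17 on the log2 scale (adjusted p = 3.35e-05). Without the third libraries at 0.25 and 0.5 µM this step was -1.27, and SMAD7 at 0.5 µM was then called lower than in untreated cells (-0.43, adjusted p = 0.0188), as it was without the third library at 0.5 µM alone (-0.47, adjusted p = 0.0184).

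SKIL (SnoN, chr3:170357342-170396835, plus strand), a partner of SMADs that recruits repressors, was not called against untreated cells at any dose. Its level was 41.4 ± 7.11 CPM in untreated cells and 41.7 ± 13.2, 49.5 ± 0.921, 51.8 ± 8.60 and 53.2 ± 3.97 CPM over the doses. Untreated libraries ran from 34.0 to 48.1 CPM and those at 1 µM from 49.8 to 57.6 CPM, so these groups did not overlap. The log2 fold change at 1 µM was 0.36 ± 0.19 with an adjusted p of 0.108. It was called in 8 of 26 alternative fits, with 0.71 under library totals (adjusted p = 0.0149), with 0.40 without the third library at 0.15 µM (adjusted p = 0.0281) and with 0.41 without the third libraries at 0.25 and 0.5 µM (adjusted p = 0.043). The median over all genes at this dose was 0.32.

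**Figure D3:**
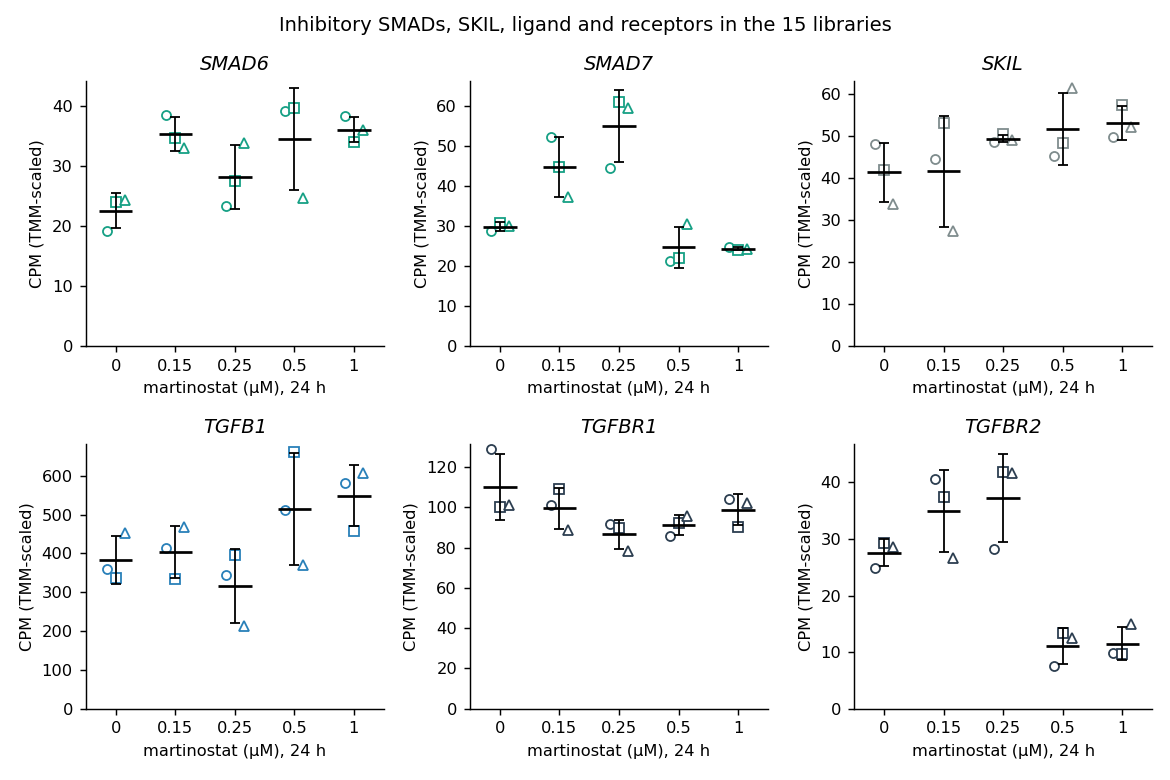
TMM-scaled CPM of SMAD6, SMAD7, SKIL, TGFB1, TGFBR1 and TGFBR2 against the martinostat dose in µM on linear axes from 0, with 1 symbol per library (circle, square and triangle for replicates 1, 2 and 3) and bars for the mean ± SD of 3 libraries. TGFBR2 and SMAD7 drop together between 0.25 and 0.5 µM, from 37.2 to 11.1 CPM and from 55.0 to 24.7 CPM.

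TGFB1 (chr19:41301587-41353922, minus strand), which encodes the founding ligand, was the most abundant of the 10 genes per kilobase of exon in untreated cells and varied widely within groups. Untreated libraries held 360, 337 and 453 CPM and those at 1 µM 581, 459 and 606 CPM, without overlap. At 0.25 µM the values were 344, 396 and 212 CPM and at 0.5 µM 511, 660 and 371 CPM, and in both groups the third library was the lowest. The log2 fold change at 1 µM was 0.52 ± 0.23 with an adjusted p of 0.0559, which did not pass the threshold, and 16 of 26 alternative fits called it, with values from 0.43 to 0.90 over all of them. Among these were the fits without the third library of any of the 4 groups below 1 µM (0.52 to 0.65), without the second at 0.5 µM (0.52) and without the second at 1 µM (0.63). With the third libraries at 0.25 and 0.5 µM left out, TGFB1 was called at 1 µM (0.56, adjusted p = 0.00124) and at 0.5 µM (0.65, adjusted p = 0.000864). At 0.5 µM the value with all libraries was 0.42 ± 0.23 (adjusted p = 0.113), and 0.47 or 0.61 without either of these libraries alone, when it was called. The step from 0.25 to 0.5 µM, 0.70 ± 0.23, was called (adjusted p = 0.0283), as was its value of 0.67 without both of them (adjusted p = 0.00419). It was not called without the first or the second library at 0.5 µM (0.70 and 0.47) or without the third at 0.25 µM (0.50). In a fit of these 2 groups alone it was 0.69 and not called (adjusted p = 0.11), and with replicate number as a block it was 0.70 and called (adjusted p = 2.58e-05). Exons of HNRNPUL1 on the other strand cover 6.6% of its exon bases.

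The receptors also parted. TGFBR1, the type I kinase, stayed near its untreated level, whereas TGFBR2, the type II receptor that binds the ligand first, dropped at the 2 higher doses. TGFBR1 (chr9:99104038-99154192, plus strand) was at 110 ± 16.3 CPM in untreated cells and at 99.6 ± 10.2, 86.5 ± 7.34, 91.1 ± 5.01 and 98.9 ± 7.65 CPM from the lowest to the highest dose. It was called lower at 0.25 µM (-0.35 ± 0.14, adjusted p = 0.0344), a direction that turned to 0.17 under library totals and to 0.06 when TMM was computed on genes above 10 CPM. That call was lost without the first untreated library (-0.22), without the second or the third library at 0.25 µM (-0.38 and -0.26) and without both of the third libraries at 0.25 and 0.5 µM (-0.26, adjusted p = 0.0963), and it held in 14 of 26 alternative fits. TGFBR1 was not called in the test of any difference among the 5 groups (adjusted p = 0.184).

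TGFBR2 (chr3:30606601-30694142, plus strand) held 24.9, 29.2 and 28.6 CPM in untreated libraries, 40.5, 37.4 and 26.7 CPM at 0.15 µM and 28.3, 41.8 and 41.7 CPM at 0.25 µM. At 0.5 µM the libraries were at 7.55, 13.3 and 12.5 CPM and at 1 µM at 9.87, 9.64 and 14.9 CPM. Every library at the 2 higher doses lay below every other library, while those at the 2 lower doses overlapped with the untreated ones. The log2 fold change was 0.34 ± 0.22 at 0.15 µM (adjusted p = 0.218) and 0.43 ± 0.22 at 0.25 µM (adjusted p = 0.1), which was called in 7 of 26 alternative fits, one of them without the first library at 0.25 µM (0.59). It was -1.31 ± 0.23 at 0.5 µM (adjusted p = 6.27e-05) and -1.27 ± 0.23 at 1 µM (adjusted p = 8.57e-05). Between 0.25 and 0.5 µM TGFBR2 fell by 1.74 ± 0.23 on the log2 scale (adjusted p = 1.33e-05), also with the third libraries of these doses left out (-1.74, adjusted p = 5.25e-05). On the deposited FPKM with a pseudocount of 1 its change was -0.14 at 0.5 and 1 µM and was not called. Its mean FPKM was 0.134 at both doses and 0.251 in untreated cells, so that this pseudocount exceeds the values.

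Read over doses, 5 of the 9 tested genes were called against untreated cells at each dose, beside the shares of all genes given above. From 0.25 to 0.5 µM 4 of 9 were called, ID2 and TGFB1 higher and SMAD7 and TGFBR2 lower, where 30.4% of all tested genes were called. From 0.5 to 1 µM 0 of 9 were called, and 0% of all tested genes (372 at an unadjusted p under 0.05, and 0 with DESeq2 after adjustment). Between 0.15 and 1 µM 4 of 9 were called, ID2 and ID3 higher and SMAD7 and TGFBR2 lower, against 44.5% of all tested genes. A difference among the 5 groups was called for 7 of 9, all but SKIL and TGFBR1, against 73.6% of all tested genes. The 3 ID genes and SMAD6 and SMAD7 had all libraries at 0.15 µM above all untreated libraries, as had 37.2% of all tested genes. At 1 µM this held for ID1, ID2, ID3, SMAD6, SKIL and TGFB1, and for 42.8% of all tested genes.

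Levels of different genes were compared as CPM per kilobase of exon. Exon length was the union of all annotated exons, which can exceed the RNA made, so the order between genes is approximate. It was 8556 bases for SMAD6 and 2213 for ID2. In plain CPM SMAD6 was above ID2 in untreated cells (22.6 and 6.8). In untreated cells TGFB1 stood at 117 ± 18.7, followed by TGFBR1 at 13.8 ± 2.05, ID1 at 11.7 ± 0.311 and ID3 at 9.82 ± 1.70. TGFBR1 and ID1, and ID1 and ID3, differed by less than the sum of their SDs. SMAD7 followed at 7.58 ± 0.272, SKIL at 5.10 ± 0.875, TGFBR2 at 4.02 ± 0.338, ID2 at 3.07 ± 0.161 and SMAD6 at 2.64 ± 0.339, with ID4 last at 0.0208. SKIL and TGFBR2, and ID2 and SMAD6, also differed by less than the sum of their SDs. At 1 µM ID3 was at 180 ± 54.5, TGFB1 at 168 ± 24.1, ID2 at 125 ± 10.8 and ID1 at 110 ± 6.03. ID3 and TGFB1, ID3 and ID2, and ID2 and ID1, differed there by less than the sum of their SDs. TGFBR2 had become the lowest of the detected genes at 1.67 ± 0.430, below SMAD6 at 4.22 ± 0.246.

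The members resembled each other in pairs. Over the 15 libraries, the Pearson correlation of log2 CPM was 0.967 for ID1 and ID3, 0.951 for ID2 and ID3 and 0.884 for ID1 and ID2. It was 0.872 for SMAD7 and TGFBR2 and -0.712 for SMAD7 and TGFB1. These values describe 5 dose groups in shared libraries and carry no test. Of 10113 other genes averaging 10 CPM or more, the one most like ID1 was MICAL1 (r = 0.990), like ID2 BMF (0.996) and like ID3 LINC00467 (0.990). For SMAD7 it was LINC01610 (0.971), for TGFB1 PRKD2 (0.980) and for TGFBR2 IQGAP2 (0.979). For SMAD6 it was ANKRD46 (0.848), for SKIL RAB2B (0.915) and for TGFBR1 MIDEAS (0.864), which are lower values. BMF, a proapoptotic BH3-only gene, went from 2.80 ± 0.224 CPM in untreated cells to 15.9, 41.0, 78.8 and 80.7 CPM over the doses, the same stepwise course as ID2.

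Of another 86 genes of the pathway, sorted by role, 74 were tested. At 0.15 µM 46 were called, 31 higher and 15 lower, while 58 were called at the highest dose, 38 higher and 20 lower. At 0.25 and 0.5 µM 45 and 60 were called. Their median log2 fold change at 1 µM was 0.67, beside 0.32 over all genes. The counts of each role that follow stand beside 31.9% of all tested genes called higher and 19.4% lower at 0.15 µM, and 38.8% higher and 27.5% lower at 1 µM. In every role, a gene near 0 in untreated cells can pass the filter only through groups where it is high. Such a gene could hardly be called lower.

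**Figure D4:**
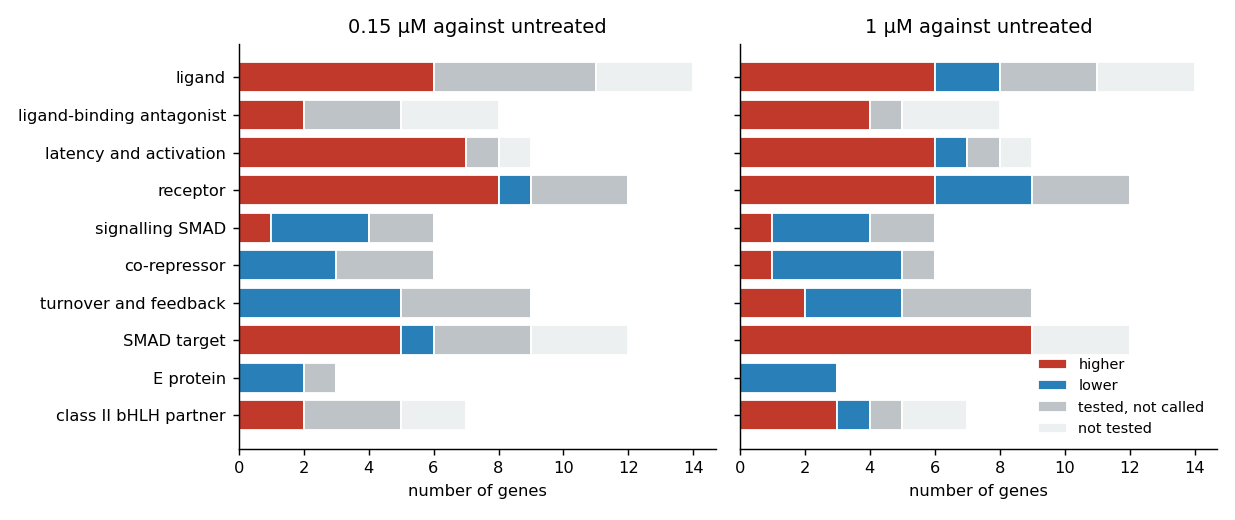
Number of genes of each role in the pathway called higher (red), called lower (blue), tested but not called (grey) and not tested (light grey) at 0.15 µM (left) and 1 µM (right) against untreated cells. The SMAD targets that were tested are all higher at 1 µM (9 of 12 listed) and E proteins all lower (3 of 3).

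Ligands and their regulators outside the cell were mostly higher. At 1 µM 6 of 11 tested ligands were higher and 2 lower. BMP6, which controls iron through hepcidin, was at 0.350 ± 0.401 CPM in untreated cells and 10.2 ± 2.22 at 0.15 µM, and stood at 13.0 ± 0.507 at 1 µM (log2 fold change 5.18 ± 0.46, adjusted p = 2.79e-08). BMP8B rose from 2.50 ± 0.414 to 42.4 ± 7.58 CPM and GDF11, an activin-like ligand, from 40.6 ± 5.39 to 124 ± 16.4 CPM. Of 5 tested antagonists that bind ligands, 4 were higher at 1 µM. CHRD (chordin), which sequesters BMPs, had 2 counts over the 3 untreated libraries and 439 at 1 µM, a ratio of 194 after scaling with a 95% exact counting interval from 53.4 to 1608. FST (follistatin), which binds activins, rose from 0.130 ± 0.160 CPM in untreated cells to 4.07 ± 0.660 and 4.95 ± 0.770 CPM at the lower doses and was at 1.91 ± 0.393 CPM at 1 µM. FSTL3 was called at 0.5 and 1 µM only (log2 fold changes 1.43 and 1.60).

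Genes that store or release latent TGF-beta were mostly higher too. At 0.15 µM 7 of 8 tested were higher, and at 1 µM 6 were higher and 1 lower. LRRC32, which encodes GARP, the surface anchor of latent TGF-beta on platelets and regulatory T cells, rose from 0.458 ± 0.212 to 26.9 ± 1.47 CPM at 1 µM (log2 fold change 5.85 ± 0.34, adjusted p = 3.36e-11). THBS1, a platelet matrix protein that activates latent TGF-beta, rose from 11.8 ± 3.46 CPM to 37.2, 110, 197 and 219 CPM over the doses. LTBP2 rose from 0.511 ± 0.212 to 7.73 ± 2.65 CPM at 1 µM.

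The other 12 receptor genes were all tested, and 9 were called at 1 µM, 6 higher and 3 lower. ENG (endoglin), a co-receptor of endothelium and early blood cells, rose from 0.752 ± 0.211 to 17.8 ± 2.61 CPM (log2 fold change 4.56 ± 0.29, adjusted p = 1.17e-10). ACVRL1 (ALK1), its type I partner for BMP9, was highest at the lower doses, with 34.3 ± 5.13 and 41.1 ± 9.63 CPM there, 2.76 ± 1.03 CPM in the untreated group and 13.5 ± 2.34 CPM at 1 µM. ACVR1C (ALK7) rose from 0.286 ± 0.192 to 3.73 ± 0.747 CPM.

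**Figure D5:**
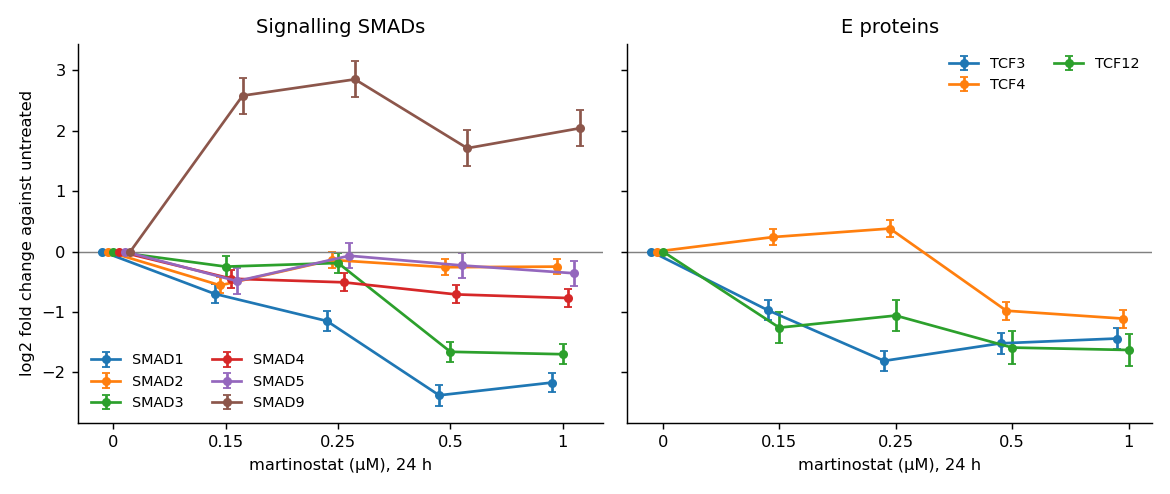
Log2 fold change against untreated cells (points, ± standard error) of the 6 signalling SMADs (left) and the 3 E proteins (right) at each martinostat dose in µM, with untreated cells set to 0. SMAD3 and TCF4 drop between 0.25 and 0.5 µM, to -1.66 and -0.98, and SMAD9 is the SMAD above 0 at all 4 doses.

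The signalling SMADs, which carry the message to the nucleus, moved in both directions. At 1 µM 3 of 6 were lower and 1 was higher, beside 27.5% and 38.8% of all tested genes. SMAD1, a BMP-receptor substrate, stepped down from 28.5 ± 1.95 CPM to 17.5, 12.8, 5.46 and 6.32 CPM (log2 fold change at 1 µM -2.17 ± 0.16, adjusted p = 1.12e-09). SMAD3, a substrate of the TGF-beta receptor, was at 96.5 ± 1.53 CPM in untreated cells, 80.9 and 84.7 CPM at the 2 lower doses, where it was not called, and 30.5 and 29.7 CPM at the 2 higher ones (-1.70 ± 0.17 at 1 µM, adjusted p = 5.9e-08). SMAD4, the shared partner of all signalling SMADs, was at 82.3 ± 2.62 CPM in untreated cells and 48.2 ± 0.585 at 1 µM (-0.77 ± 0.15, adjusted p = 0.000141). SMAD2 was called lower at 0.15 µM (-0.56, adjusted p = 0.00118) and not at 1 µM (-0.25, adjusted p = 0.0922), and SMAD5 at no dose (-0.36 at 1 µM, adjusted p = 0.151). SMAD9 (SMAD8), a further BMP-receptor substrate, rose from 0.988 ± 0.374 to 5.92 ± 1.29 CPM at 0.15 µM and was at 4.09 ± 0.487 at 1 µM.

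Of 6 nuclear co-repressors of SMADs, 4 were lower and 1 was higher at 1 µM. ZEB2, a SMAD-interacting zinc-finger repressor, was at 78.4 ± 0.900 CPM in untreated cells, 95.3 ± 21.9 and 103 ± 15.5 at 0.15 and 0.25 µM, where it was not called, and 8.54 ± 2.37 and 7.22 ± 2.17 at 0.5 and 1 µM (-3.44 ± 0.24 at 1 µM, adjusted p = 4.28e-10). MECOM (EVI1), which blocks SMAD3 and is active in some leukaemias, stepped down from 40.8 ± 2.77 to 4.97 ± 1.02 CPM, and TGIF2 from 55.7 ± 2.06 to 22.4 ± 2.29 CPM. Of 9 genes of turnover and feedback, 2 were higher and 3 lower at 1 µM. BAMBI, a decoy receptor, rose from 31.7 ± 4.23 to 119 ± 14.0 CPM, PMEPA1 from 1.75 ± 0.189 to 4.56 ± 1.10 CPM, and USP15, a deubiquitinase of SMADs and receptors, fell from 314 ± 20.4 to 135 ± 11.1 CPM.

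All 9 tested genes of a list of 12 other SMAD targets were higher at 1 µM, where 38.8% of all tested genes were, and at 0.15 µM 5 were higher and 1 lower. The filter on low counts removed CCN2, TGFBI and CDKN2B, which averaged 0.0172, 0.0259 and 0 CPM over the 15 libraries. SNAI2 was near 0 in untreated cells, so that it could hardly be called lower. CDKN1A (p21), a cell-cycle inhibitor that many other inputs also induce, rose from 3.90 ± 1.08 to 61.6 ± 3.91 CPM at 0.15 µM and 356 ± 51.2 CPM at 1 µM (log2 fold change 6.51 ± 0.25, adjusted p = 1.88e-13). SNAI2, a repressor of epithelial genes, was at 0.129 ± 0.161 CPM without treatment and 2.84 ± 0.518 CPM at 1 µM.

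The DNA-binding partners of the ID proteins went the other way. TCF3 (E2A) fell from 473 ± 17.3 CPM in untreated cells to 241 ± 17.5, 135 ± 18.3, 165 ± 40.2 and 175 ± 0.907 CPM over the doses (-1.44 ± 0.17 at 1 µM, adjusted p = 4.01e-07). TCF12 (HEB) fell from 145 ± 17.7 to 60.4 ± 21.1 CPM at 0.15 µM and was at 46.7 ± 5.28 at 1 µM (-1.63 ± 0.27, adjusted p = 4.52e-05). TCF4 (E2-2) was called higher at 0.25 µM (0.38 ± 0.14, adjusted p = 0.0273) and lower at 0.5 and 1 µM (-1.11 ± 0.15 at 1 µM, adjusted p = 1.96e-06). All 3 were thus lower at 1 µM, where 27.5% of all tested genes were called lower. Per kilobase of exon, the summed level of ID1, ID2 and ID3 was 24.6 ± 1.46 in untreated cells and that of the 3 E proteins 93.8 ± 2.79. At 1 µM the sums were 415 ± 61.1 and 34.4 ± 0.903. Dividing the ID sum by the E-protein sum gave 0.288, 0.250 and 0.250 in the untreated libraries, 5.45, 4.35 and 4.78 at 0.15 µM, and 11.2, 14.6 and 10.6 at 1 µM. Every treated library lay above every untreated one, which follows from the higher ID genes and the lower E-protein sums and is no further result. This description of RNA levels was chosen after the values were seen. The lengths used take the union of all annotated exons, 29166 bases for TCF4 and 1233 for ID1. The size of the ratio depends on these lengths and is not a ratio of molecules. TAL1, the bHLH factor that pairs with E proteins in erythroid cells, was at 122 ± 10.8 CPM in untreated cells, 123 ± 3.97 at 0.15 µM and 25.1 ± 3.86 at 1 µM (-2.28 ± 0.19, adjusted p = 5.09e-09), with 14.8% of its exon bases under a gene of the other strand. HES1, a bHLH repressor, rose from 24.9 ± 3.06 to 40.4 ± 3.68 CPM. TAL1 and HES1 belong to a list of 7 bHLH genes, of which 5 were tested. At 1 µM 3 of these were called higher and 1, TAL1, lower.

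Marker genes moved along with these changes. Of 8 erythroid markers, 3 were lower at the lowest dose. At 1 µM 6 of them were lower and 1 was higher. The higher one was HBE1, whose exons overlap other genes and which had 42 counts over the 3 libraries. GATA1 stood at 18.9 ± 3.08 CPM at 1 µM, from 328 CPM in untreated cells. At 0.15 µM, where the ID genes had risen, HBZ was at 332 ± 39.3 CPM, TFRC (the transferrin receptor) at 423 ± 51.6, from 1228 ± 110, and LMO2 (a partner of GATA1 and TAL1) at 69.6 ± 3.75, from 168 ± 7.83, with all libraries of these 3 genes below the untreated ones. GATA1 was then at 313 ± 29.3 CPM and was not called. Of 8 markers of other cells (T cell, B cell, monocyte and fibroblast), 7 were tested. The lowest dose had 5 of these higher, while the highest dose had 4 higher and 2 lower. COL1A1 went from 4.36 ± 0.954 CPM to 298 ± 45.5 at 0.15 µM and 398 ± 94.4 at 1 µM, while its partner COL1A2 went from 18.9 ± 2.12 to 22.4 ± 1.11 and 9.70 ± 2.32 CPM. The monocyte gene CSF1R was at 0.457, 5.14 and 25.9 CPM in these groups and CD14 at 0.203, 0.312 and 0.864 CPM. The B-cell gene MS4A1 had 0 counts in untreated cells and 2 at 1 µM. The part of such markers in the results was not tested. In bulk RNA, a change in the number of cells of a state and a change of RNA per cell cannot be told apart.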

How the data were processed

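The authors sequenced poly(A) RNA of K562 cells from directional libraries as paired ends, trimmed reads with Trim Galore 0.6.10 and Trimmomatic, aligned them to hg38 with HISAT2 2.2.1 and counted fragments per GENCODE gene with featureCounts 1.5.3. The strand setting of the counting is not given in the sources used here. The deposited table held raw counts of 60649 genes in 15 libraries. The deposited FPKM of each library equalled counts over the library total and a gene length, which matched the genomic span within 0.5% for 93.7% of 17563 genes checked.

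Counts were tested with edgeR 4.0.16 in R 4.3.3 (filterByExpr, TMM, robust quasi-likelihood F test, Benjamini-Hochberg over all genes tested), with all 15 libraries in 1 fit and the group as the only term. Residual degrees of freedom numbered 10, and the common dispersion was 0.052. The script was run on simulated counts in which few genes changed, as many up as down. Such counts do not test the scaling where most genes change. The study used DESeq2, which here (1.42.0) was an alternative, as were limma 3.58.1 on log2(FPKM + 1) and log2(FPKM + 0.1), other scalings and filters, a replicate block, and leaving out each library. After subtracting group means, libraries of equal number correlated at 0.266, 0.268 and 0.579 between 0.25 and 0.5 µM, so these groups were also fitted with the number as a block. In other pairs of groups the correlation was 0.0918 or lower.

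Named were the 10 genes, all signalling SMADs and E proteins, up to 3 genes of each other role with a mean of 1 CPM or more and the largest called change at 1 µM, and the gene most like each member (Pearson r, genes of at least 10 CPM). A few genes that this rule or the lists name are not reported here, though they stay in the counts. The members and lists were chosen with earlier results of these data known. Symbols were matched for 99.7% of identifiers. Positions, exon lengths and overlaps came from a later GENCODE release on hg38, and promoters from RefSeq, which held all 10 genes. The precision of low values is limited by counting, and intervals cover counting error only.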

Additional observations from a re-analysis of the deposited data

How the results depend on the processing

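The calls of ID1, ID2 and ID3 against untreated cells held in 26 of 26 alternative fits at each dose, and those of SMAD7 at 0.15 and 0.25 µM and of SMAD6 at 0.15, 0.5 and 1 µM did so as well. Over 72 log2 fold changes of the 9 tested genes, 1784 of 1881 alternative values kept direction and side of the threshold, 78 became called, 15 were no longer called and 4 reversed. The reversed values are those of TGFBR1 at 0.25 µM, which were 0.17 with library totals, 0.06 when TMM was computed on genes above 10 CPM, 0.11 on log2(FPKM + 1) and 0.17 on log2(FPKM + 0.1). The number of the 9 genes called from 0.15 to 0.25 µM, 1 as reported, became 2 with size factors of DESeq2 in edgeR, with TMM computed on genes above 10 CPM, with no filter, with DESeq2 and without the third libraries at 0.25 and 0.5 µM, an alternative added after the data were seen. Leaving out single libraries gave 1 to 2. With no filter all 10 genes were tested. A replicate block over all libraries changed no call of the 9 genes, with 5 called at each dose, and called 7161 of all genes from 0.25 to 0.5 µM, against 7211 without it. In a fit of these 2 groups alone, 3 of the 9 genes and 4841 of 21562 genes were called without the block, and 5 and 9935 with the replicate block, which was added after the data were seen. The calls gained by the block were ID1 and TGFB1. Differences under about 0.5 on the log2 scale depend on the scaling, as for SKIL, TGFB1, TGFBR1, SMAD6 at 0.25 µM and the low doses of TGFBR2. Low counts limit ID4, CHRD and SNAI2. The cause of these changes was not tested.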
